A study of Mus musculus with 25 samples.

Results

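Hippocampal gene expression was compared between Scn1a+/- and wild-type mice of the 129S6/SvEvTac strain (here 129S6) at postnatal day 24 (P24), the background that the series title sets against a susceptible one. The comparison took the 6 P24 129S6 libraries of the 25 in the series, 3 of each genotype, chosen by the genotype in the name of each count file. For these 6 libraries the file names and the labels disagree: the 3 files named for Scn1a+/- belong to samples whose title and genotype label say wild type, and the 3 files named for wild type belong to samples labelled Scn1a+/-. The libraries are called here filed as Scn1a+/- and filed as wild type, every difference is filed as Scn1a+/- minus filed as wild type, and by the labels every difference within these 6 libraries would turn its sign. Tests that set them against other groups would change in size and, for some genes, in sign. The authors' deposited table of normalized values goes with the file names: its 6 P24 129S6 columns are each proportional, to within 0.1% over genes with 50 counts or more, to a file whose name gives the genotype in the column's title, although that file is attached to a sample of the other genotype. Its other 19 columns match count files of their own group.

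Each library was a pool of hippocampi from 12 to 16 mice without seizures. The labels do not say which part of Scn1a the mutant allele lacks, nor whether pools came from separate litters or days. The p-values thus measure only the spread between pools, which was estimated over the 22 libraries of 8 groups fitted together. The comparison groups were the [129S6/SvEvTac x C57BL/6]F1 mice (here F1) without seizures at P24, 2 Scn1a+/- and 3 wild-type pools, and 129S6 mice at P14, 3 Scn1a+/- and 2 wild-type pools, all of 12 to 16 mice. Total counts were 14765960, 25520050 and 9864675 in the libraries filed as Scn1a+/- 1 to 3, and 11105760, 13292062 and 13677095 in those filed as wild type 1 to 3. Over the series they ran from 7436442 to 25520050. The 6 libraries detected 17303 to 18452 of the 24421 gene symbols, and no pair of the same filed genotype agreed within counting noise.

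Scn1a encodes Nav1.1, an alpha subunit of the voltage-gated sodium channel, which forms the pore that opens at the start of an action potential. Fast-spiking and other inhibitory interneurons depend on it, and loss of 1 copy causes Dravet syndrome, a severe epilepsy of infancy. In mice the severity of the same mutation varies with the strain, and 129S6 carriers are known for a mild course. Markers of neurons and of hippocampal fields were present in all 6 libraries. Slc17a7, the vesicular glutamate transporter of excitatory neurons, lay between 1436 and 1592 CPM (counts scaled to an effective library size of 1000000) in the 6 libraries, and Gad1, which makes GABA, between 184 and 203 CPM. Fibcd1, a marker of CA1 pyramidal cells, lay between 121.2 and 154.4 CPM, and Dsp, a marker of dentate granule cells, between 89.3 and 94.8 CPM.

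Scn1a was lower in every library filed as Scn1a+/-. Its level was 110.01, 109.1 and 110.6 CPM in libraries 1 to 3 filed as Scn1a+/- and 133.8, 143.6 and 141.5 CPM in libraries 1 to 3 filed as wild type. The groups did not overlap, and the mean of 109.9 ± 0.74 CPM (SD, n = 3) was 78.7% of the mean of 139.6 ± 5.1 CPM (SD, n = 3). The log2 fold change was -0.35 ± 0.058 (SE), with a 95% interval of -0.46 to -0.23 and an adjusted p of 0.0045 in edgeR's quasi-likelihood test. This direction was known when the files were assigned to genotypes, so it lends no weight to that assignment. In the authors' deposited table, the mean normalized Scn1a value was 1643 in the P24 129S6 columns titled Scn1a+/- and 2085 in those titled wild type. The gene lies on chromosome 2 at 66270781 to 66440837 (mm10), and the level is a count over the whole gene, so it can hold reads from a transcript of the mutant allele outside the part that was removed. It overlaps the gene model Gm13630, and such pairs may share reads.

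Scn1a was also lower, with no overlap, in the Scn1a+/- pools of P24 F1 and P14 129S6 mice. In P24 F1 mice without seizures, Scn1a was 124.8 to 129.6 CPM in the 3 wild-type pools and 93.5 and 115.4 CPM in the Scn1a+/- pools, a log2 fold change of -0.30 ± 0.065 (SE). In P14 129S6 mice it was -0.18 ± 0.065, with 92.3 to 102.1 CPM in 3 Scn1a+/- pools and 107.4 and 115.04 CPM in the wild-type pools. The P24 129S6 change differed from the F1 change by -0.049 on the log2 scale (95% interval -0.22 to 0.13) and from the P14 129S6 change by -0.17 (95% interval -0.35 to 0.0052). Neither interval excluded equality, and the adjusted p-values of these interaction contrasts in edgeR were 0.99 and 0.85. The Scn1a call in P24 129S6 depended on the libraries in the fit: its adjusted p in edgeR was 0.15 without library 2 filed as wild type, 0.057 and 0.103 without libraries 1 and 2 filed as Scn1a+/-, and 0.41 when the 3 seizure pools joined the fit, with the log2 fold change between -0.38 and -0.33 throughout.

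**Figure D1:**
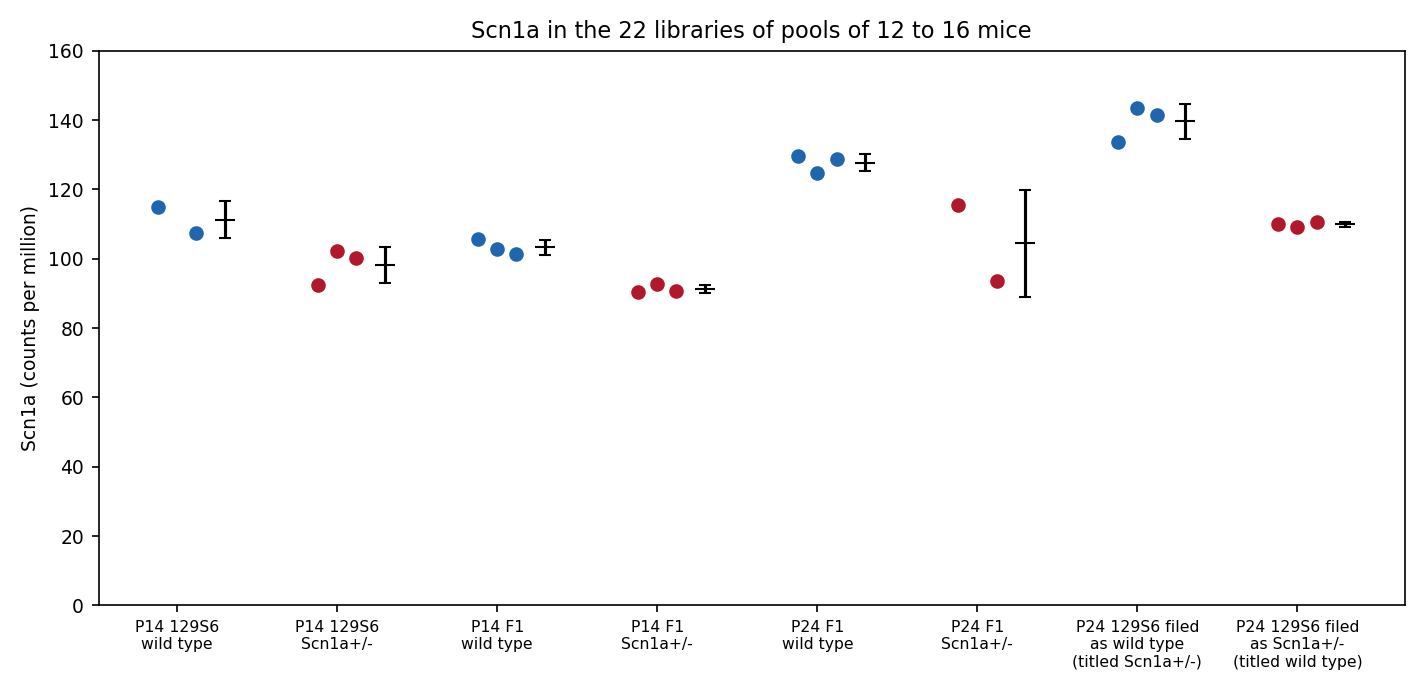
Scn1a in CPM (y axis, from 0) in each of the 22 libraries of pools of 12 to 16 mice, by group (x axis). Red points are Scn1a+/- and blue points wild type, by file name in P24 129S6, and black marks give the mean and SD of a group. The 3 libraries filed as Scn1a+/- at P24 lie between 109.1 and 110.6, below the 3 filed as wild type at 133.8 to 143.6.

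Across the transcriptome little else separated the genotypes. Of 15690 genes tested, 2 passed an adjusted p of 0.05 (0.0127% of the genes tested), Scn1a and Rn45s, both lower in the libraries filed as Scn1a+/-. At an unadjusted p under 0.05 there were 385 genes higher (2.45%) and 366 lower (2.33%). The median log2 fold change over all tested genes was -0.0025, with 7690 genes above 0 and 7997 below. DESeq2, limma-voom and edgeR with robust dispersions each called 1 gene, Scn1a, in the same libraries, and edgeR called 0 of 15912 genes (0%) with the seizure pools in the fit, where 471 (2.96%) had an unadjusted p under 0.05.

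Rn45s, the precursor of ribosomal RNA, was set apart by 1 library. It measured 483, 337 and 310.4 CPM in the libraries filed as Scn1a+/- and 325, 5577 and 306 CPM in those filed as wild type, so that the groups overlapped and library 2 filed as wild type stood alone. In that library Rn45s took 0.549% of the counts, against 0.0258% to 0.0495% in the other 24 of the series. The log2 fold change was -2.46 ± 0.44 (adjusted p = 0.0094, edgeR) with this library and 0.26 without it, where it was not called. Lars2, a mitochondrial leucyl-tRNA synthetase (425 CPM against 67.8 to 81.7 in the other 5 libraries), and Mir6236 (109.1 CPM against 16.6 to 23.6), both chosen after their values were seen, were high in the same library. Neither passed the test, with log2 fold changes of -1.25 and -1.24.

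The size of difference that these pools allow can be read from the 95% intervals. For 12101 of the 15690 genes (77.1%) the interval of the fold change lay within 1.5-fold either way, and for 9007 (57.4%) within 1.25-fold. Among the 9136 genes whose mean log2 CPM was 4 or more, it lay within 1.5-fold for 9130 (99.9%).

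**Figure D2:**
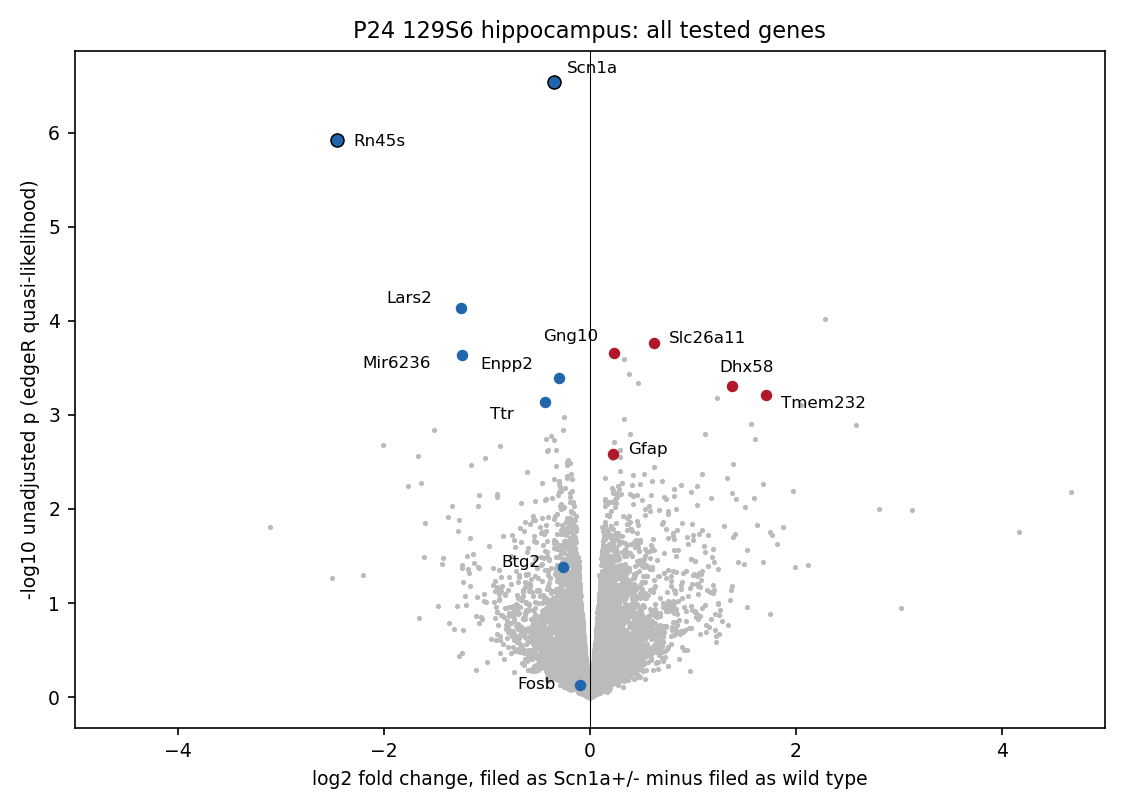
Log2 fold change (x axis, filed as Scn1a+/- minus filed as wild type) against -log10 of the unadjusted p from edgeR (y axis) for the 15690 tested genes of P24 129S6. Black rings mark the called genes, Scn1a and Rn45s; Rn45s, Lars2 and Mir6236 are high in 1 library filed as wild type, and the other labelled genes did not pass the adjusted test.

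No sodium channel subunit other than Scn1a was called. Of 11 sodium channel subunits tested, Scn1a was called and no other passed even an unadjusted p of 0.05. Without regard to p, the groups did not overlap for 2 lower subunits, Scn1a among them, and 0 higher ones. Over all tested genes the shares without overlap were 5.54% lower and 5.16% higher. Scn2a1, the main channel of excitatory axons, differed by -0.085 (95% interval -0.20 to 0.033), and Scn8a, which carries firing at the axon initial segment, by -0.059 (-0.16 to 0.047). Scn3a, prominent in the developing brain, differed by 0.0055 (-0.12 to 0.13). These intervals exclude a change of the size seen for Scn1a in any of the 3 genes. Scn9a, which lies beside Scn1a on chromosome 2, measured 9.43, 8.60 and 10.12 CPM in the libraries filed as Scn1a+/- and 9.33, 7.49 and 6.40 CPM in those filed as wild type, overlapping and not called.

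The potassium and calcium channel lists gave no called gene. At an unadjusted p under 0.05, 0 of 51 potassium and HCN channel genes were higher and 1 lower, Kcnab3, a beta subunit of Kv1 channels. Kcnab3 measured 22.6, 22.3 and 22.5 CPM in the libraries filed as Scn1a+/- and 25.6, 28.1 and 25.2 CPM in those filed as wild type (log2 fold change -0.23 ± 0.095). Its groups did not overlap, as was so for 870 (5.54%) of all tested genes in the lower direction and 809 (5.16%) in the higher one. Of 22 calcium channel subunits 1 was lower at that p, Cacnb1 (-0.13 ± 0.061). The medians of the 2 lists were -0.0077 and -0.015.

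In the inhibitory system, 1 of 27 genes of GABA receptors, synthesis and transport was higher and 1 lower at an unadjusted p under 0.05, with a median of -0.038. Slc32a1, the vesicular GABA transporter, was 49.3, 44.3 and 45.6 CPM in the libraries filed as Scn1a+/- and 56.2, 55.3 and 51.6 CPM in those filed as wild type. These groups did not overlap, and the log2 fold change was -0.23 ± 0.092 (adjusted p = 0.996, edgeR). Slc12a2, the chloride importer NKCC1, was 130.7, 131.8 and 138.9 CPM against 126.4, 121.9 and 122.4 CPM, a log2 fold change of 0.11 ± 0.054. Its counterpart Slc12a5, the chloride exporter KCC2, overlapped between the groups (-0.069, 95% interval -0.19 to 0.053). The synthetic enzymes differed by -0.024 (-0.16 to 0.108) for Gad1 and -0.033 (-0.15 to 0.088) for Gad2.

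No marker of the interneurons that use Nav1.1 was called in edgeR. Pvalb, which marks fast-spiking basket cells, measured 43.2, 39.2 and 40.5 CPM in the libraries filed as Scn1a+/- and 40.04, 42.0 and 42.6 CPM in those filed as wild type (-0.024, 95% interval -0.18 to 0.13). Sst, which marks dendrite-targeting cells, was 76.1, 75.6 and 78.2 CPM against 83.3, 83.3 and 81.4 CPM (-0.11, 95% interval -0.27 to 0.053). The Sst groups did not overlap, the Pvalb groups did, and neither gene was called. Of 35 interneuron markers 1 was higher and 2 lower at an unadjusted p under 0.05, with a median of -0.035. Without regard to p, the groups did not overlap for 5 lower markers, Slc32a1, Cck, Lamp5 and Sst among them, and 1 higher, Cort, of the 35, next to 5.54% and 5.16% of all tested genes; Lamp5 and Cort are named after their values were seen. In bulk tissue, fewer cells of a type and less RNA per cell cannot be told apart.

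No difference was detected in the genes most used as a readout of neuronal activity. Immediate early genes are switched on within minutes of strong firing, and their transcripts are a common readout of seizures. Fos measured 11.4, 10.9 and 9.10 CPM in the libraries filed as Scn1a+/- and 10.5, 8.49 and 11.03 CPM in those filed as wild type. Fosb was 5.50, 5.35 and 3.14 CPM against 3.90, 6.04 and 5.44 CPM, and Npas4, an activity-dependent transcription factor of neurons, was 11.6, 12.4 and 18.1 CPM against 13.5, 15.5 and 11.1 CPM. All 3 genes overlapped between the groups. Their log2 fold changes were 0.081 (95% interval -0.28 to 0.44), -0.095 (-0.69 to 0.50) and 0.030 (-0.32 to 0.38), so a doubling is outside each interval, and leaving out single libraries turned the sign of each. Arc, whose product acts at synapses, differed by -0.101 (-0.26 to 0.054).

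Of 46 immediate early genes tested, 0 were higher and 4 lower at an unadjusted p under 0.05, and none was called by edgeR. The shares were 0% higher and 8.7% lower, next to 2.45% and 2.33% of all tested genes. The 4 were Klf10 (-0.23 ± 0.092), Btg1 (-0.22 ± 0.099), the antiproliferative gene Btg2 (-0.25 ± 0.12) and Dusp6, a phosphatase that dampens ERK signalling (-0.16 ± 0.081). Klf10 was 22.6, 21.2 and 18.9 CPM in the libraries filed as Scn1a+/- and 25.8, 24.7 and 23.8 CPM in those filed as wild type, with no overlap. The list's median was -0.019, near that of all genes. Among 30 neuropeptides and late genes known to respond to seizures, 2 were lower at that p and the median was -0.061. They were Vgf, a secreted growth factor precursor, at 66.0, 66.7 and 61.3 CPM against 76.2, 83.5 and 73.7 CPM (-0.26 ± 0.097), and Cck. Npy, a peptide that rises in the dentate gyrus after seizures, differed by 0.0051 (95% interval -0.19 to 0.20).

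Glial genes gave no call. Gfap, the intermediate filament that increases in reactive astrocytes, was 906, 714 and 620 CPM in the libraries filed as Scn1a+/- and 646, 613 and 656 CPM in those filed as wild type. Library 1 filed as Scn1a+/- was the highest of the 6 and library 3 lay within the wild-type range, so the groups overlapped. The log2 fold change was 0.23 ± 0.072 with an adjusted p of 0.996 in edgeR, and it was 0.064 without library 1 and 0.34 without library 3 filed as Scn1a+/-. Of 34 reactive astrocyte genes, 22 lay above 0 and 12 below with a median of 0.12, while 1 was higher and 1 lower at an unadjusted p under 0.05. The groups did not overlap for 0 higher and 2 lower of the 34, next to 5.16% and 5.54% of all tested genes. Leaving out single libraries gave medians of 0.051 to 0.12, the lowest without library 2 filed as Scn1a+/-, and the median also fell by over 1.5 times without library 1 filed as Scn1a+/- or library 2 or 3 filed as wild type. Several of these genes are weakly expressed, and their fold changes spread from -0.75 to 0.54. Homeostatic astrocyte genes (24, median 0.011) and microglial genes (29, median 0.0082) each had 1 gene higher and 0 lower at that p, S100b (0.15 ± 0.072) and Tyrobp (0.26 ± 0.12). Myelin genes (30) had a median of 6.3e-06 with 1 lower, Enpp2, and interferon-induced genes (29) a median of 0.013 with 0 at that p either way.

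Markers of the choroid plexus, the secretory epithelium in the ventricle beside the hippocampus, were mostly lower in the libraries filed as Scn1a+/-. Of 31 markers of choroid plexus and ependyma tested, 28 lay below 0 and 3 above, 7 were lower and 1 higher at an unadjusted p under 0.05, and none was called. The shares at that p were 22.6% lower and 3.23% higher, next to 2.33% and 2.45% of all tested genes. Of all tested genes 51% lay below 0. The list's median of -0.19 was the lowest of the 35 lists. Its summed level was 1321, 1339 and 1357 CPM in the libraries filed as Scn1a+/- and 1941, 1568 and 1538 CPM in those filed as wild type, so the sums did not overlap and library 1 filed as wild type was the highest. Such sums were not particular to this list. They were also lower without overlap for CA1 markers, sodium channel subunits, seizure-responsive neuropeptides and late genes, cytokines and microglial activation, and synaptic vesicle release. For cytosolic ribosomal protein genes they were higher without overlap. A sum can differ from its members: of 17 cytokine and microglial activation genes, 10 lay above 0 and 7 below, with a median of 0.020. Choroid plexus lies outside the hippocampus proper, and its part in the differences of Ttr, Enpp2 and Kl was not tested.

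Ttr, the thyroxine carrier that choroid plexus secretes, made up most of that sum. It measured 665, 684 and 681 CPM in the libraries filed as Scn1a+/- and 1093, 833 and 827 CPM in those filed as wild type, a log2 fold change of -0.44 ± 0.12 (95% interval -0.68 to -0.19, adjusted p = 0.77, edgeR). The 3 lower libraries lay close together and library 1 filed as wild type stood above the rest; without it the fold change was -0.30, and the fit of the 6 libraries alone called Ttr (adjusted p = 0.00079, edgeR). Enpp2, the enzyme autotaxin, which choroid plexus and oligodendrocytes express, was 271, 276 and 297 CPM against 392, 334 and 307 CPM (-0.29 ± 0.077, adjusted p = 0.63). Kl, the ageing-related hormone Klotho, was 24.3, 27.1 and 25.0 CPM against 37.4, 28.2 and 31.0 CPM (-0.33 ± 0.101). None of the 3 genes overlapped between the groups. Chosen after their values were seen, the clotting factor F5 (-0.54 ± 0.23) and the water channel Aqp1 (-0.45 ± 0.19) were lower without overlap, and the prolactin receptor Prlr was the 1 marker higher without overlap (0.32 ± 0.14). Leaving out each library in turn left 27 to 29 of the 31 markers below 0.

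Markers of CA1 pyramidal neurons, the output cells of the hippocampus, went the same way by a smaller amount. Of 20 tested, 17 lay below 0, 4 were lower and 0 higher at an unadjusted p under 0.05, and the median was -0.13. The shares at that p were 20% lower and 0% higher, next to 2.33% and 2.45% of all tested genes. Their summed level was 1838, 1846 and 1777 CPM in the libraries filed as Scn1a+/- and 1936, 1906 and 1999 CPM in those filed as wild type, without overlap. Fibcd1 measured 122.3, 124.2 and 121.2 CPM in the libraries filed as Scn1a+/- and 143.8, 141.7 and 154.4 CPM in those filed as wild type (-0.26 ± 0.076, adjusted p = 0.996, edgeR). Pou3f1, a transcription factor, was 56.9, 63.2 and 52.6 CPM against 65.4, 68.0 and 70.2 CPM (-0.22 ± 0.076). The groups did not overlap for either gene. Wfs1, a defining CA1 marker chosen after its values were seen, was 154.6, 157.4 and 143.6 CPM against 166.3, 162.9 and 173.1 CPM (-0.14 ± 0.084). Without each library in turn, 16 to 18 of the 20 lay below 0.

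Markers of the neighbouring fields and tissues had medians near 0. The medians were -0.017 for 26 dentate granule cell markers, 0.0012 for 28 CA2 and CA3 markers, -0.031 for 21 neocortical markers, 0.011 for 22 thalamic and habenular markers and 0.029 for 15 striatal markers. At an unadjusted p under 0.05 the counts higher and lower were 0 and 1, 0 and 1, 0 and 0, 1 and 0, and 1 and 0 in that order. The striatal and thalamic genes at that p were Pde10a (0.15 ± 0.059) and Zic4 (0.53 ± 0.18). Endothelial and pericyte markers (33) had a median of -0.030, and leptomeningeal and fibroblast markers (26) one of 0.0032. Haemoglobin genes were listed at 0 in all 6 libraries, which leaves 6 blood cell genes (median 0.0075). Their log2 fold changes ran from -0.11 to 1.97. Of these 6 genes, 2 were higher and 0 lower at an unadjusted p under 0.05 in edgeR, next to 2.45% and 2.33% of all tested genes.

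**Figure D3:**
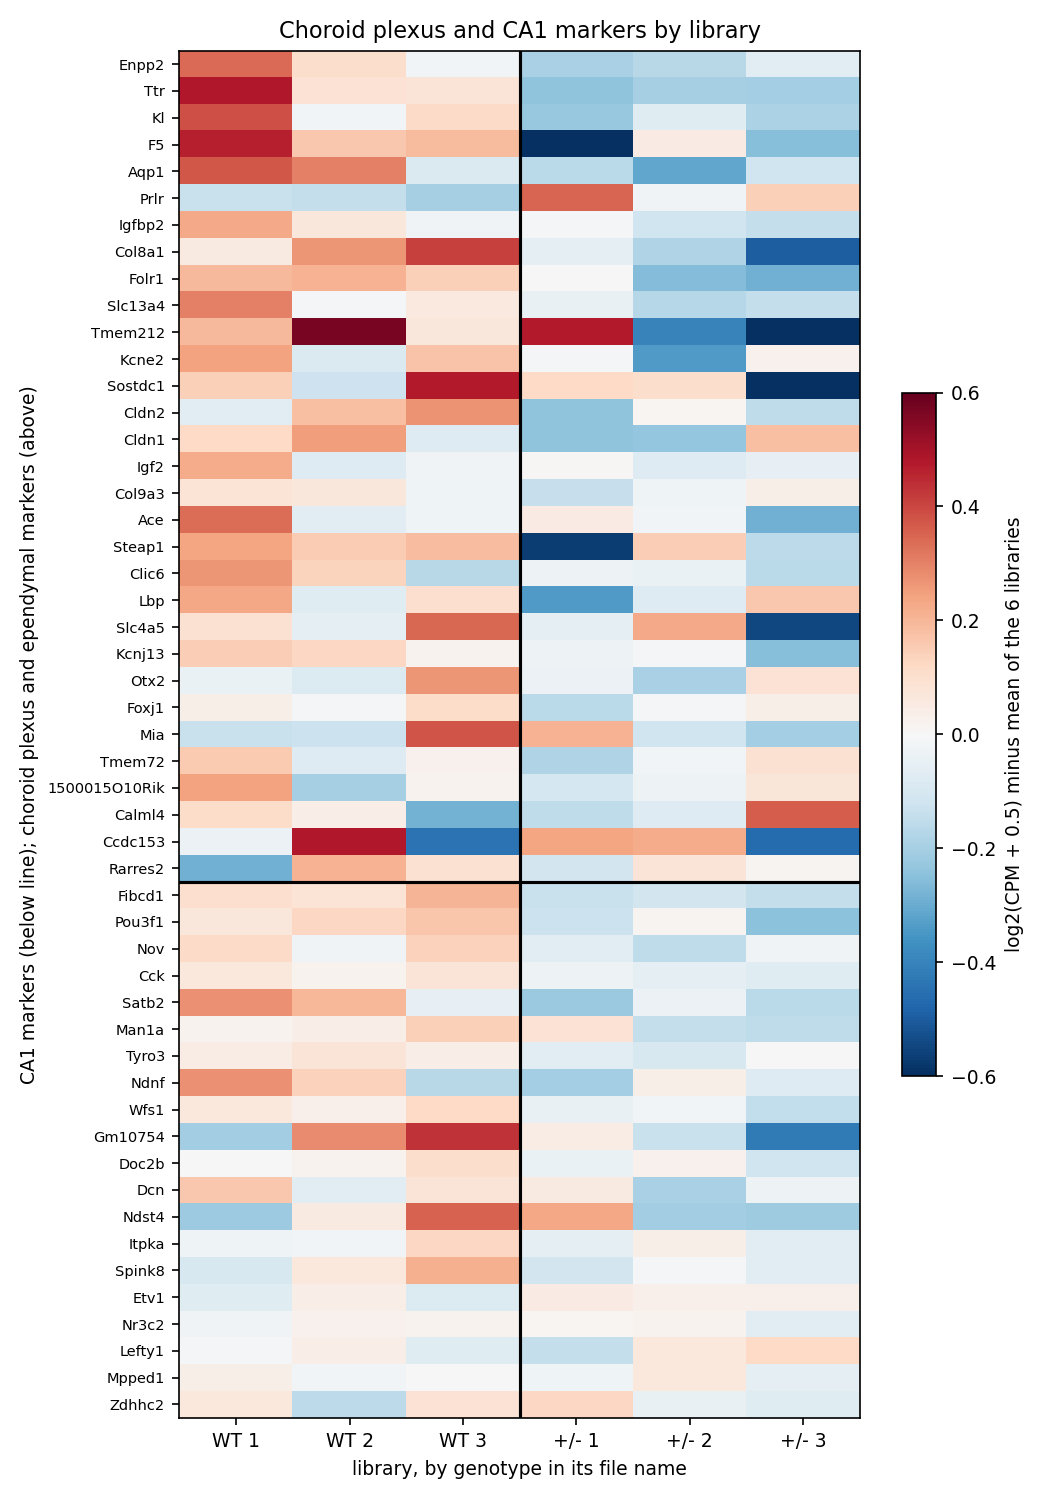
Level of each tested choroid plexus and ependymal marker (above the black line) and CA1 marker (below it) in the 6 P24 129S6 libraries, as log2(CPM + 0.5) minus the mean of the 6; red is higher and blue lower, WT and +/- follow the file names, and rows are ordered by p. The upper rows of both blocks are red in the 3 libraries filed as wild type and blue in the 3 filed as Scn1a+/-, and library 1 filed as wild type holds the highest Ttr, 1093 CPM.

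Housekeeping groups had medians near 0. Of 75 cytosolic ribosomal protein genes, 50 lay above 0 and 25 below, 4 were higher and 0 lower at an unadjusted p under 0.05, and the median was 0.046. The groups did not overlap for 9 higher and 1 lower of the 75, next to 5.16% and 5.54% of all tested genes. Their summed level was 3587, 3635 and 3616 CPM in the libraries filed as Scn1a+/-. It was 3508, 3367 and 3580 CPM in those filed as wild type, without overlap. Rpl17 (0.84 ± 0.31), Rpl27a (0.20 ± 0.081) and Rpl35a (0.26 ± 0.12) had the smallest p-values; ribosomal protein genes have many pseudogene copies, so their counts are uncertain. Leaving out each library in turn left 43 to 50 of the 75 above 0. The 74 oxidative phosphorylation genes had a median of 0.017, with 2 higher and 0 lower at that p, Atp5k (0.19 ± 0.089) and Cox7c (0.30 ± 0.14). The lists for cholesterol synthesis (26), heat shock and unfolded proteins (31), glucocorticoid response (25) and synaptic vesicle release (38) had medians of 0.018, 0.0064, 0.033 and -0.037. Herpud1 (0.23 ± 0.080) and Xbp1 (0.18 ± 0.066), genes of the unfolded protein response, were the 2 heat shock list members higher at that p. None of the 19 candidate Dravet modifier and epilepsy genes reached that p.

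**Figure D4:**
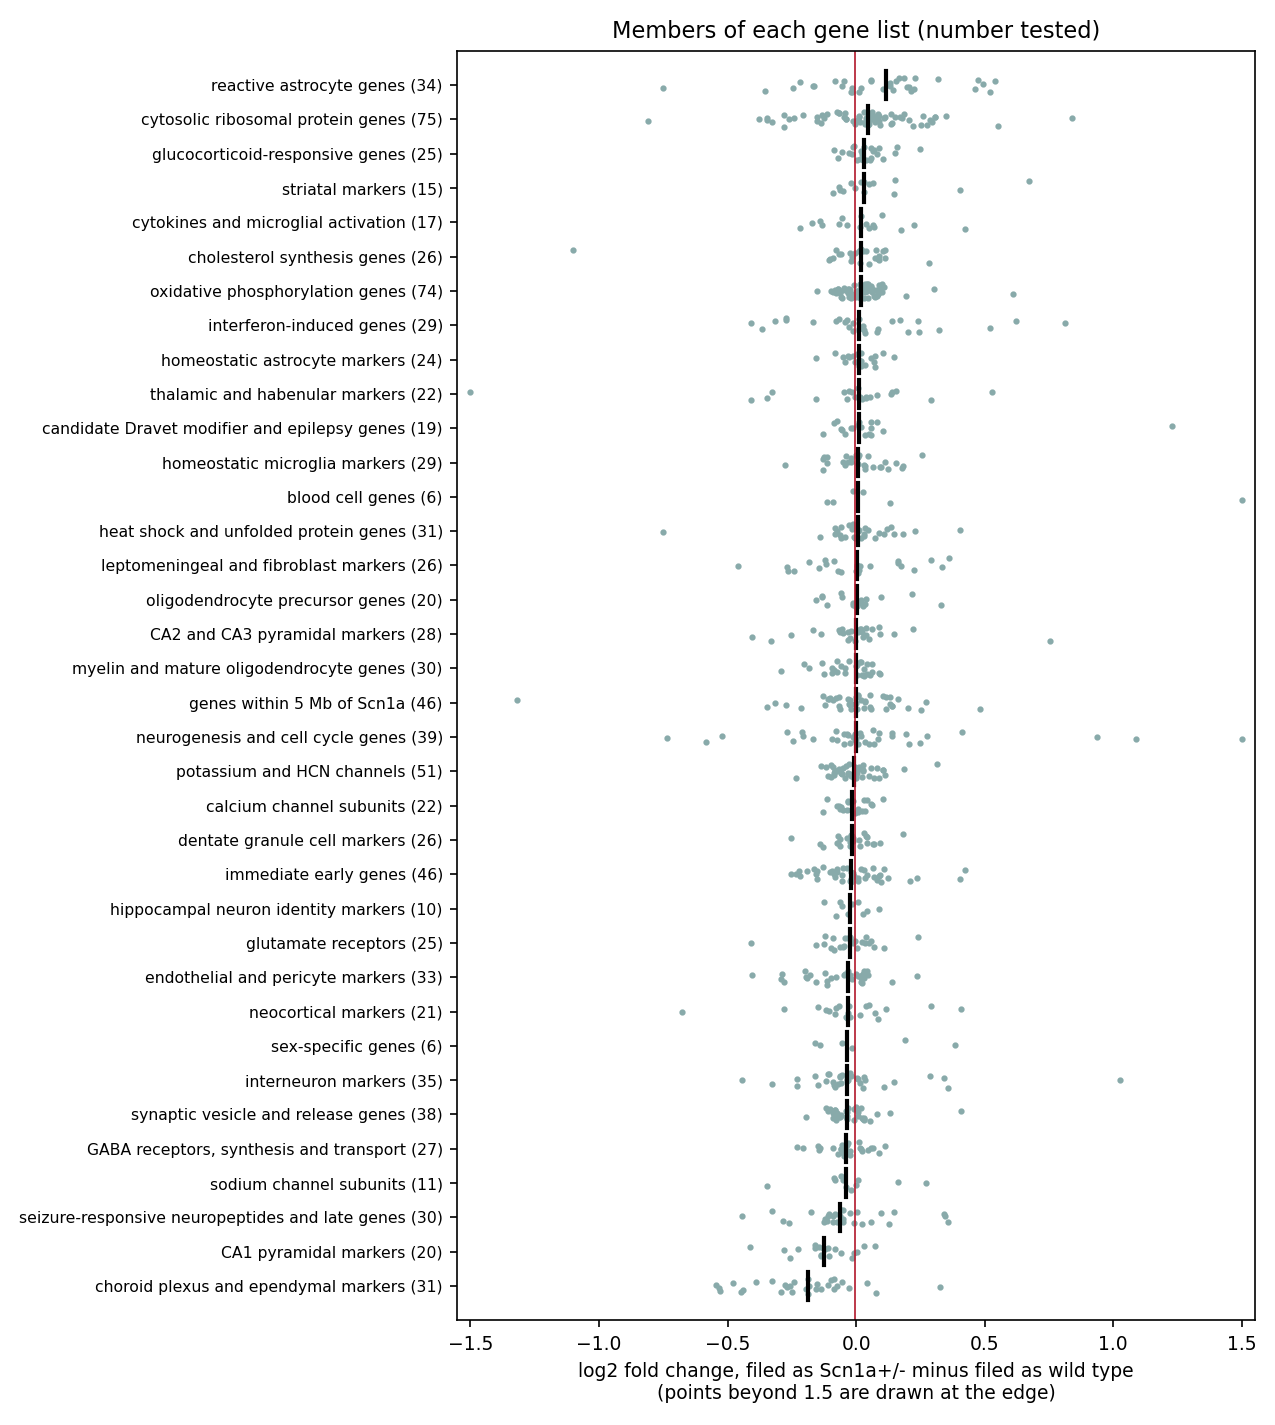
Log2 fold change (x axis, filed as Scn1a+/- minus filed as wild type) of every tested member of each gene list and of the genes within 5 Mb of Scn1a (y axis, with the number tested). Dots are genes, black bars the list medians and the red line the median of all tested genes; choroid plexus (-0.19) and CA1 markers (-0.13) have the lowest medians and reactive astrocyte genes (0.12, or 0.051 to 0.12 with single libraries left out) the highest.

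Genes around the targeted locus showed no shared shift. Of 46 tested genes that start within 5 Mb of Scn1a on chromosome 2, 23 lay above 0 and 23 below, with a median of -0.00074, and Scn1a was the 1 gene called. At an unadjusted p under 0.05, 3 were higher (6.52%) and 2 lower (4.35%), next to 2.45% and 2.33% of all tested genes. Scn1a was among the 2 lower genes. The others, chosen after their values were seen, were Phospho2 (0.25 ± 0.089), the prolyl isomerase Ppig (0.14 ± 0.059), Nostrin (0.48 ± 0.23) and the Golgi stacking protein Gorasp2 (-0.13 ± 0.058).

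Among the genes that kept the libraries filed as Scn1a+/- apart, Scn1a was called and none of the higher ones was. Slc26a11, an anion transporter, measured 8.69, 8.21 and 9.20 CPM in the libraries filed as Scn1a+/- and 6.34, 5.20 and 5.30 CPM in those filed as wild type (0.63 ± 0.15, adjusted p = 0.499, edgeR). It overlaps Sgsh on chromosome 11, and the library kit does not mark strand, so reads of the shared part cannot be assigned by strand. Gng10, a G protein gamma subunit, was 113.1, 119.2 and 120.4 CPM against 97.2, 95.5 and 106.7 CPM (0.24 ± 0.059). Hps5, of a complex that sorts cargo to lysosome-related organelles, was 28.6, 30.4 and 31.8 CPM against 23.9, 25.5 and 22.3 CPM (0.34 ± 0.085). These groups did not overlap in any of the 3 genes.

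The remaining higher genes by this rule were the cGMP-dependent kinase Prkg1 (0.39 ± 0.10046), the glycosidase Engase (0.47 ± 0.13), the RNA sensor Dhx58 (1.38 ± 0.37), Tmem232 (1.71 ± 0.47), the spindle protein Knstrn (1.24 ± 0.34), Chchd7 (0.34 ± 0.097) and the histone chaperone Asf1b (1.56 ± 0.45). Dhx58, Tmem232, Knstrn and Asf1b were all below 3 CPM in each of the 6 libraries. Among the lower genes, beside Scn1a, Enpp2, Ttr and Fibcd1, were Gramd4 (-0.25 ± 0.071), the serotonin receptor Htr5a (-0.37 ± 0.11), Nxpe4 (-0.43 ± 0.13), Zfp407 (-0.34 ± 0.104), the transcriptional repressor Hic1 (-0.87 ± 0.27) and Cdk5rap1 (-0.40 ± 0.13). Htr5a was 11.8, 13.6 and 13.4 CPM in the libraries filed as Scn1a+/- and 17.1, 17.2 and 16.04 CPM in those filed as wild type. Of the named lower genes Hic1 overlaps Smg6, Nxpe4 overlaps Nxpe2 and Cdk5rap1 overlaps Bpifb genes in the annotation.

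A direct test asked whether the genotype difference in P24 129S6 departed from that in P24 F1 mice without seizures. Of 15690 genes, 1 passed (0.00637%), Btg2, with a difference of differences of -0.95 ± 0.17 on the log2 scale (95% interval -1.30 to -0.60, adjusted p = 0.029, edgeR). Btg2 was 23.2, 22.1 and 25.8 CPM in the 129S6 libraries filed as Scn1a+/- and 29.6, 27.9 and 26.6 CPM in those filed as wild type. In F1 it was 28.0 and 49.1 CPM in the 2 Scn1a+/- pools and 22.1 to 24.1 CPM in the 3 wild-type pools (0.70 ± 0.13). The F1 pools thus differed from each other by more than the genotypes did in 129S6. Without the F1 Scn1a+/- pool 1, the one at 49.1 CPM, the Btg2 difference was -0.52 (adjusted p = 0.19, edgeR), and without pool 2 it was -1.33 (adjusted p = 3.8e-07). The call was also lost in edgeR without any 1 of the F1 wild-type pools (adjusted p = 0.056, 0.17 and 0.058), without library 2 filed as wild type (0.107) and without libraries 1 and 2 filed as Scn1a+/- in turn (0.13 and 0.31). By the labelled genotypes the Btg2 difference was -0.44 and not called (adjusted p = 0.23, edgeR).

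The same 2 F1 pools set the contrast for the other early genes. Fos, Fosb and Npas4 were called in P24 F1, at 0.72 ± 0.18, 1.40 ± 0.28 and 0.78 ± 0.17, against 0.081, -0.095 and 0.030 in 129S6. Their differences of differences, -0.63 ± 0.26, -1.49 ± 0.41 and -0.75 ± 0.24, did not pass the adjusted test in edgeR (adjusted p = 0.93, 0.82 and 0.93). In F1, Fosb was 22.0 CPM in 1 Scn1a+/- pool and 5.65 CPM in the other, next to 4.29 to 5.51 CPM in wild type. Without the F1 Scn1a+/- pool 1 the Fos, Fosb and Npas4 differences were -0.0051, -0.27 and -0.31, and without pool 2, when all 3 passed, they were -1.14, -2.22 and -1.15. Next to Btg2 by the naming rule stood Rn45s, Slc26a11 (1.02 ± 0.22), the collagen gene Col1a2 (0.73 ± 0.18), Rpl7 (-0.42 ± 0.106) and Sec11c (-0.38 ± 0.101), with adjusted p-values over 0.05.

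Genes called in the P24 F1 comparison lay mostly on the same side of 0 in 129S6. The F1 mice gave 200 calls (1.27% of 15690), 92 higher (0.586%) and 108 lower (0.688%), from pools that the 129S6 comparison does not share. Of the 92, 78 lay above 0 in 129S6, with a median of 0.073 (quartiles 0.031 and 0.11) beside 0.31 in F1. Of the 108, which include Scn1a, 99 lay below 0, with a median of -0.083 (quartiles -0.12 and -0.054) beside -0.28 in F1. Over all tested genes 49% lay above 0 and 51% below in 129S6. The F1 medians belong to genes picked for passing in F1 and so are not estimates of their size. The smaller medians in 129S6 thus do not measure a difference between the strains. In edgeR's test of that difference, 1 of the 92 and 0 of the 108 passed. In P14 129S6 the medians of the same sets were -0.075 and 0.076. Leaving out each P24 129S6 library in turn left 68 to 80 of the 92 above 0 and 94 to 104 of the 108 below. The F1 pools were not left out in turn for these counts. With genotypes taken from the labels instead, the test of the difference between the strains called 137 genes (0.873%).

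Single genes show the range. Ttr was -0.56 ± 0.14 in F1 and -0.44 ± 0.12 in 129S6, Enpp2 -0.37 ± 0.087 and -0.29 ± 0.077, and Fibcd1 -0.29 ± 0.084 and -0.26 ± 0.076, differences that the test did not separate. Gfap was 0.46 ± 0.079 in F1 and 0.23 ± 0.072 in 129S6 (0.064 without library 1 filed as Scn1a+/-), and Vgf -0.54 ± 0.11 and -0.26 ± 0.097. Neither pair passed the test of the difference (adjusted p = 0.93 each, edgeR). The choroid plexus list had a median of -0.24 in F1 and -0.19 in 129S6, and the ribosomal protein list one of 0.21 and 0.046.

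**Figure D5:**
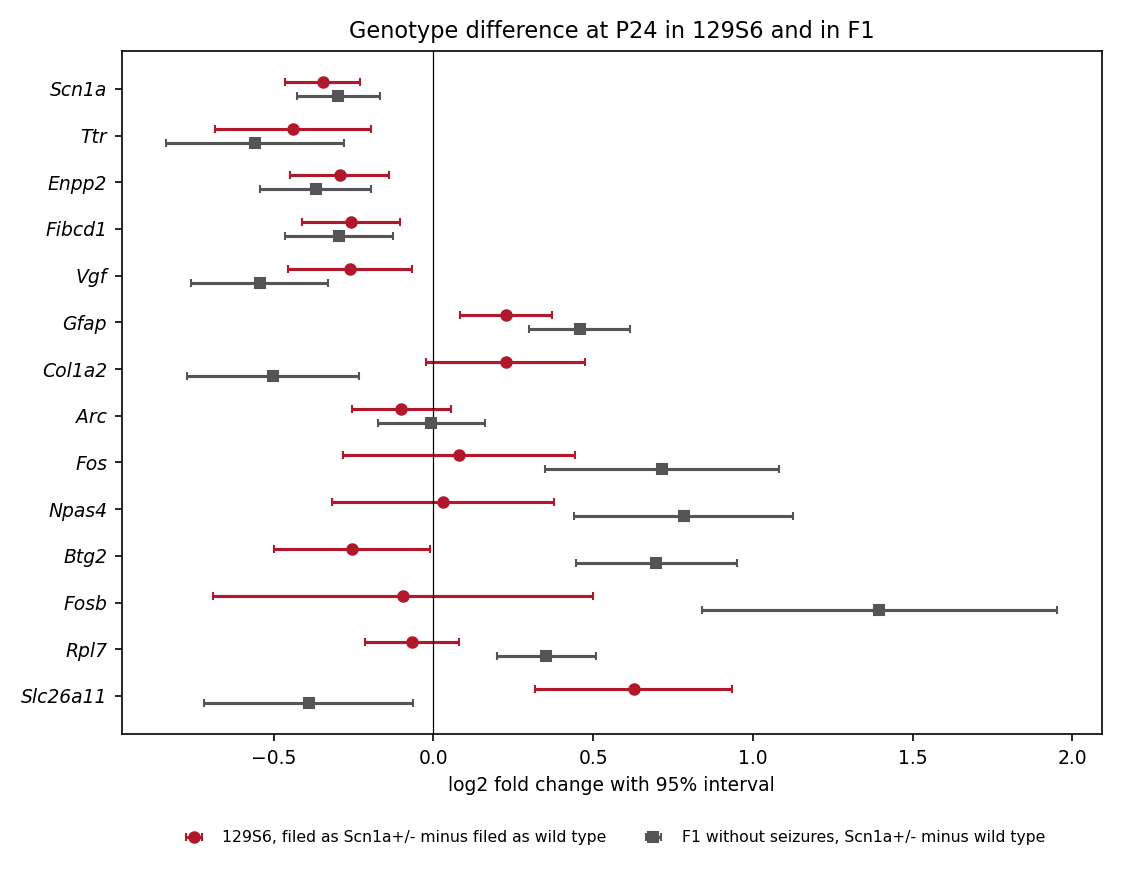
Log2 fold change with its 95% interval (x axis) at P24 for 14 genes (y axis): red circles are 129S6, filed as Scn1a+/- minus filed as wild type, and grey squares are F1 without seizures, Scn1a+/- minus wild type. Scn1a, Ttr, Enpp2 and Fibcd1 lie at like values in both, and Fos, Npas4 and Fosb lie near 0 in 129S6 (0.081, 0.030 and -0.095) and above 0 in F1.

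A further test set P24 129S6 against P14 129S6, to ask whether the genotype difference changed with age in this strain. No gene passed in edgeR (0 of 15690, 0%), with 898 (5.72%) at an unadjusted p under 0.05. The genes of smallest p were the purinergic receptor P2ry1 (1.30 ± 0.29), Enpp2 (-0.48 ± 0.12), the clustered protocadherin Pcdhgc4 (-0.74 ± 0.19), which shares exons with its cluster, and the membrane metalloprotease Mmp14 (-0.74 ± 0.20). The fifth, Gabra6, measured 0 to 5.90 CPM in the P24 libraries filed as Scn1a+/- and 0 to 2.22 CPM in those filed as wild type. At P14 Gabra6 was 0 to 0.23 CPM in the Scn1a+/- pools and 0 and 8.81 CPM in the 2 wild-type pools. P2ry1 was 5.43, 4.84 and 6.88 CPM in the P24 libraries filed as Scn1a+/- and 4.62, 3.67 and 3.31 CPM in those filed as wild type. At P14 P2ry1 was 3.34 to 4.28 CPM in the Scn1a+/- pools and 5.85 and 6.97 CPM in the 2 wild-type pools, so both ages entered its difference. The choroid plexus and CA1 lists, with medians of -0.19 and -0.13 at P24, had medians of 0.062 and 0.052 at P14, where Ttr was 0.12 ± 0.13 and Fibcd1 0.17 ± 0.086. For Ttr the P24 and P14 changes differed by -0.56 (95% interval -0.92 to -0.19) and for Fibcd1 by -0.43 (-0.66 to -0.19), with an adjusted p of 0.80 for both in edgeR.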

How the data were processed

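Libraries were made from TRIzol RNA with TruSeq RNA Library Preparation Kit v2, which does not mark strand, per the labels. The authors deposited raw gene counts, 1 file a library (24421 symbols, 0 rows naming no gene), and a table of normalized signal values, used only to match its columns to the count files; how it was scaled is not stated. CASAVA, TopHat2 2.1.0, HTSeq 0.6.1p1 and mm10 are named per the submitters' processing notes; annotation and strand setting: not given in the sources used here. The 3 seizure pools (3 to 4 mice each) stayed out of the fit. The other 22 libraries (8 groups) were fitted together with edgeR 4.0.16 (R 4.3.3; TMM, filterByExpr with a minimum count of 10, quasi-likelihood test, Benjamini-Hochberg adjustment over 15690 genes; common biological coefficient of variation 5.44%, 14 residual degrees of freedom). An SE is the log2 fold change over the root of its F statistic. CPM were computed from the counts. DESeq2 1.42.0, limma-voom 3.58.1, other size factors, filters and libraries were alternatives. The fit was also run on counts simulated with the same spread for every gene and no outlying library. That run therefore cannot speak to calls that rest on 1 library. Coordinates and gene overlaps come from RefSeq's GRCm38.p6 table, where 14993 tested symbols and 664 older ones matched and 33 did not.

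The comparison, the 35 gene lists and the panel were chosen with earlier results of these data known. Named genes are Scn1a, called genes, the 10 higher and 10 lower genes of smallest p whose libraries do not overlap (mean log2 CPM of at least 0), up to 3 members of each list by p, a panel of 28 genes, and 5 genes of each interaction test; some of these are not reported here.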

Additional observations from a re-analysis of the deposited data

Results flagged for a closer look

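The genotype difference of Btg2 departed between the strains at P24 by the test of that difference itself, -0.95 ± 0.17 on the log2 scale (adjusted p = 0.029, edgeR), with -0.25 in 129S6 and 0.70 in F1. DESeq2, limma-voom and robust edgeR did not call it (adjusted p = 0.65, 0.13 and 0.55), and by the labelled genotypes it was -0.44 (adjusted p = 0.23, edgeR). Its 2 F1 Scn1a+/- pools were apart at 28.0 and 49.1 CPM.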

How the results depend on the processing

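The genotype comparison called 2 genes in the fit of 22 libraries, 0 with all 25 libraries, 1 with DESeq2, limma-voom or robust dispersions and 8 with no low-count filter (Enpp2, Fibcd1, Gfap, Lars2, Mir6236, Rn45s, Scn1a and Ttr); leaving out each of the 6 libraries gave 0 to 4, with 4 without library 1 or 3 filed as wild type, 0 without library 2 filed as wild type or 1 or 2 filed as Scn1a+/-, and 1 without library 3 filed as Scn1a+/-. Scn1a was -0.35 with all 25 libraries, where it was not called, and -0.38 to -0.33 when libraries were left out. The test against P24 F1 called 1 gene, but 0 with all 25 libraries, DESeq2, limma-voom or robust dispersions, 7 with no filter, 137 with the labelled genotypes, and 0 to 8 without each 129S6 or F1 library (8 without F1 Scn1a+/- pool 2, 0 without any 1 F1 wild-type pool). The test against P14 129S6 called 0 genes, but 18 with no filter, 1 with the labelled genotypes and 0 to 1 without each library. The cause of these moves was not tested. The number of intervals within 1.5-fold ran from 11424 to 13395.

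Of 1618 values of named genes under the alternatives, 19 turned their sign. Without single libraries the ranges were -2.97 to 0.26 for Rn45s, -1.65 to 0.19 for Lars2, -1.63 to 0.19 for Mir6236, -0.015 to 0.017 for Scn3a, -0.071 to 0.0047 for Gad1, -0.067 to 0.013 for Pvalb, -0.089 to 0.15 for Npy, -0.028 to 0.16 for Fos, -0.25 to 0.067 for Fosb and -0.15 to 0.16 for Npas4. Npas4 was -0.0085 with limma-voom. By the labelled genotypes the difference between strains was -0.24 for Slc26a11 and that between ages 0.11 for Enpp2. The counts without each library in turn, for lists and for the tests against F1 and P14, were chosen after seeing the data. No paired analysis was possible because the titles number the libraries through the whole series and so pair none.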
